A study of Arabidopsis thaliana with 30 samples.

Results

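The 20 genes described here were expressed in the Arabidopsis thaliana parent Ler (Landsberg erecta) and silent in the parent C24. They are the nuclear genes with a mean of at least 2 CPM (counts per 1e+06, that is a gene's count divided by the sum of all counts of its library and scaled) over the 3 Ler libraries and under 0.25 CPM over the 3 C24 libraries, apart from a segment of chromosome 2 that was left out. They are 20 of 33230 nuclear genes in the count table, and 20566 nuclear genes reached 2 CPM in Ler. The parental values chose the members, so the parental difference is given below as a description and was not tested. In bulk tissue, fewer cells that express a gene cannot be told apart from less RNA per cell. The reads were counted on 1 reference genome, so a value near 0 cannot tell an unexpressed gene from one that is missing or changed in that line.

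The study set hybrids and selfed descendants of the C24 and Ler cross beside both parents. Seedlings were grown on MS medium with sucrose in long days, without treatment, and their whole aerial tissue was sampled at 15 days. The tested lines were 3 F6 lines called hybrid mimics (HM-W, HM-S and HM-G), 3 other F6 lines from the same recurrent selection (Med-E, Med-F and Sml-D), and the reciprocal F1 hybrids LerXC24 and C24XLer, which came from hand pollination. The reference lines were the inbred parents Ler and C24. Each of the 10 lines has 3 libraries, which the labels call replicates A to C for parents and F1 hybrids and siblings 1 to 3 for F6 lines. The labels do not say whether a library is 1 plant or a pool, so a p-value reflects only how far these libraries spread, which may be technical in part.

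An F1 plant carries 1 genome copy from each parent at every locus. Repeated selfing then fixes most loci for the copy of 1 parent, and siblings of an F6 line can still differ where a locus was not yet fixed. A gene that only 1 parent expresses can therefore be read as on or off in each descendant. This state marks the parental copy at the gene's own locus only if the parental difference lies there, which was not tested. Here a member was on in a line where its mean reached 25% of the Ler mean and 0.5 CPM, off where it was under 0.25 CPM, and intermediate otherwise.

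Total reads ran from 41600826 to 53397900 a library and gene counts summed to between 46822397 and 60757656. A floor of 3 counts corresponds to between 0.0494 and 0.0641 CPM, and this covers counting error only. The 6 aerial markers, such as RBCS1A and CAB1, summed to between 26339 and 36691 CPM. The 8 root markers summed to between 49.8 and 81.5 CPM in Ler and between 201 and 251 CPM in C24, mostly from PYK10. The 5 floral organ markers summed to between 16.4 and 27.4 CPM in Ler and between 8.06 and 8.56 CPM in C24, and reached between 30.1 and 42.7 CPM in Sml-D. Their part in the members' levels was not tested.

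By annotation 9 members are protein coding, 9 are pseudogenes and 2 are non-coding RNA genes. Pseudogenes were 45% of the members, against 2.63% of the annotated nuclear genes that reached 2 CPM in Ler. They were 59.4% of the 32 genes that the same rule selects the other way round, expressed in C24 and silent in Ler. A near copy elsewhere in the reference genome, defined as at least 90% identity over at least 50% of the gene's length, was found for 8 members (40%). This compares with 2.84% of the annotated nuclear genes that reached 2 CPM in Ler and 28.1% of those 32 genes. Neither trait is particular to the members. Chromosomes 1 to 5 hold 5, 3, 6, 1 and 5 members. The coding members include ARGAH2, an arginase that splits arginine into ornithine and urea, LUP5 of the cyclase family that makes triterpenes, AT1G58807 of the CC-NBS-LRR class of immune receptors, and AT3G44070 of glycosyl hydrolase family 35, the family of plant beta-galactosidases. Among the other coding members, AT3G52530 and AT5G38260, are annotated as protein kinases, AT5G37230 as a RING/U-box protein, AT3G43340 as a pseudouridine synthase and AT2G24692 as a BTB/POZ domain protein. The non-coding members are the microRNA gene MIR163 and AT3G29644, which overlaps the pseudogene AT3G29642 on the other strand. SADHU5-2, a pseudogene in the annotation, belongs to the SADHU non-coding retroelements, a family known for expression that varies between Arabidopsis accessions.

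MIR163 is the member with a known regulatory sequence. It lies on chromosome 1 (24884066 to 24884396, TAIR10.1), and the libraries report its precursor transcript, not the mature microRNA. Mature miR163 guides cleavage of transcripts of the SAMT family, methyltransferases of small carboxylic acids and defence compounds, among them AT1G66690, PXMT1 (AT1G66700) and FAMT (AT3G44860). The mature sequence is shown with its seed, bases 2 to 8, in capitals. In the best matching stretch of 2 of these targets, capitals mark Watson-Crick pairs without gaps, and a U facing a G stays in lower case. These sequences are shown because the target levels are set beside MIR163 further on. All were read from TAIR10.1 at chromosome 1 24884359 to 24884382 on the plus strand for the microRNA, chromosome 1 24870402 to 24870425 on the minus strand for AT1G66690, and chromosome 3 16380055 to 16380078 on the plus strand for FAMT.
ath-miR163: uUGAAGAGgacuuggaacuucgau
AT1G66690 site: caucgAGUUCCAAGUCCUCUUCAA
FAMT site: AaucgAGUUCCAAGUuuUCUUCAA
The AT1G66690 site differed from a perfect match at 5 of 24 bases and the FAMT site at 6 of 24, and the site in PXMT1 had the same letters as that in AT1G66690.

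The parental levels span a wide range. ARGAH2 was the most abundant member, at 82.0, 127 and 67.9 CPM in Ler, against 0.131, 0.194 and 0.155 CPM in C24. The pseudogene AT2G24760 followed with 25.3, 27.1 and 30.7 CPM in Ler, against 0.150, 0.213 and 0.0777 CPM in C24. AT3G44070 was at 20.2, 20 and 23.6 CPM in Ler and at 0.206, 0.310 and 0.155 CPM in C24. The other 17 members averaged between 2.01 and 8.96 CPM in Ler. The rule's edges were close: AT1G44870 (2.01 CPM in Ler) and AT5G37230 (2.05 CPM) lay just inside the Ler minimum, with FAR8 (1.95 CPM) and AT2G13130 (1.94 CPM) just outside. Just inside the C24 maximum were AT5G35965 (0.248 CPM in C24) and AT1G35280 (0.230 CPM), with AT1G44860 (0.256 CPM) and AT5G24735 (0.320 CPM) just outside. LUP5 is a member through 1 library, since its Ler values were 0.219, 6.04 and 0.902 CPM, and the lowest of these was close to the highest library of a line where it was off, 0.191 CPM in Med-F.

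In the F1 hybrids every member was detected in all 6 libraries, at a level between the parents for most. All 20 members were on in C24XLer and 17 in LerXC24, where AT1G44870, MIR163 and LUP5 were intermediate. Over the 6 hybrid libraries the members stood at a median of 51.8% of their Ler mean, with a range from 21.9% for MIR163 to 98.0% for AT3G52530. The lowest hybrid library exceeded the highest C24 library for 19 members, all but MIR163, and the highest hybrid library was below the lowest Ler library for 15. The 32 genes that the same rule selects the other way round, expressed in C24 and silent in Ler, stood at a median of 54.1% of their C24 mean. Because Ler chose the members, these shares are a description.

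**Figure D1:**
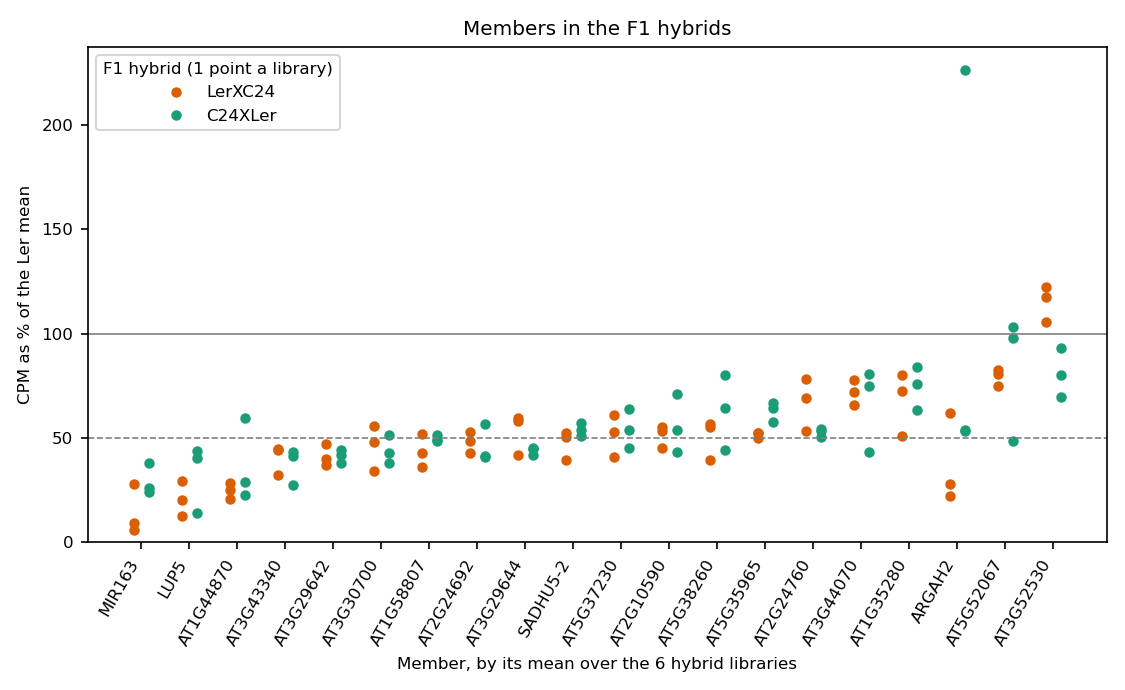
CPM in each F1 library as a percentage of the Ler mean (y axis) for the 20 members (x axis, ordered by their mean over the 6 hybrid libraries), with 3 LerXC24 and 3 C24XLer points a member, a dashed line at 50% and a solid line at 100%. Most points sit near 50%, MIR163 averages 21.9% and AT3G52530 98.0%, and 1 C24XLer library of ARGAH2 stands above 200%.

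SADHU5-2 shows the common pattern, with 3.31, 4.38 and 4.23 CPM in LerXC24, 4.77, 4.50 and 4.27 CPM in C24XLer, 7.40, 8.83 and 8.85 CPM in Ler, and 0.131, 0.136 and 0.291 CPM in C24. All 6 hybrid libraries lay between the parents without overlap. AT3G52530 departed from it, with 3.36, 3.89 and 3.74 CPM in LerXC24, 2.21, 2.97 and 2.56 CPM in C24XLer, and 3.36, 2.92 and 3.28 CPM in Ler. Its LerXC24 libraries were at or above every Ler library. AT5G52067, at 81.3% of Ler, also overlapped Ler. MIR163 lay at the low end with 0.798, 0.267 and 0.167 CPM in LerXC24 and 1.10, 0.747 and 0.695 CPM in C24XLer, against 2.82, 3.95 and 1.84 CPM in Ler and 0.280, 0.0968 and 0.0777 CPM in C24. Its lowest LerXC24 libraries fell within the C24 range.

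The reciprocal hybrids differed at 1 of the 20 members, ARGAH2. It was at 57.1, 26.0 and 20.3 CPM in LerXC24 and at 209, 49.8 and 49.3 CPM in C24XLer, so that replicate A was the highest of its hybrid in both and the groups overlapped. The change in LerXC24 against C24XLer was a log2 value of -1.59 ± 0.41 (standard error, edgeR quasi-likelihood test, adjusted p = 0.030), and 4.91% of the 29268 genes tested were called in this comparison, 2.57% higher and 2.34% lower. The call for ARGAH2 (AT4G08870) was lost without replicate A of C24XLer (adjusted p = 0.46), without replicate B of C24XLer (0.063), without replicate B (0.14) or C (0.25) of LerXC24, and when only the 2 hybrids were fitted. ARGAH1, the second arginase gene, was at 14.1 ± 0.7 CPM in LerXC24 and 14.8 ± 1.8 CPM in C24XLer (SD, n = 3). The median log2 change was -0.07 over the members and 0.01 over all genes tested.

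In the F6 lines the members separated into on and off. Of the 120 combinations of member and F6 line, 58 were on (48.3%), 50 were off and 12 were intermediate. On members stood at a median of 102% of the Ler mean and off members at 1.28%. HM-W had 9 members on, HM-S 10, HM-G 6, Med-E 11, Med-F 12 and Sml-D 10. The genes with the opposite parental pattern were on in 91 of 192 combinations, 47.4%. SADHU5-2 again gives the typical case: it was at 8.97, 9.05 and 8.73 CPM in Med-E, at the Ler level and above every hybrid library, and between 0.0382 and 0.486 CPM in the 15 libraries of the other F6 lines.

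**Figure D2:**
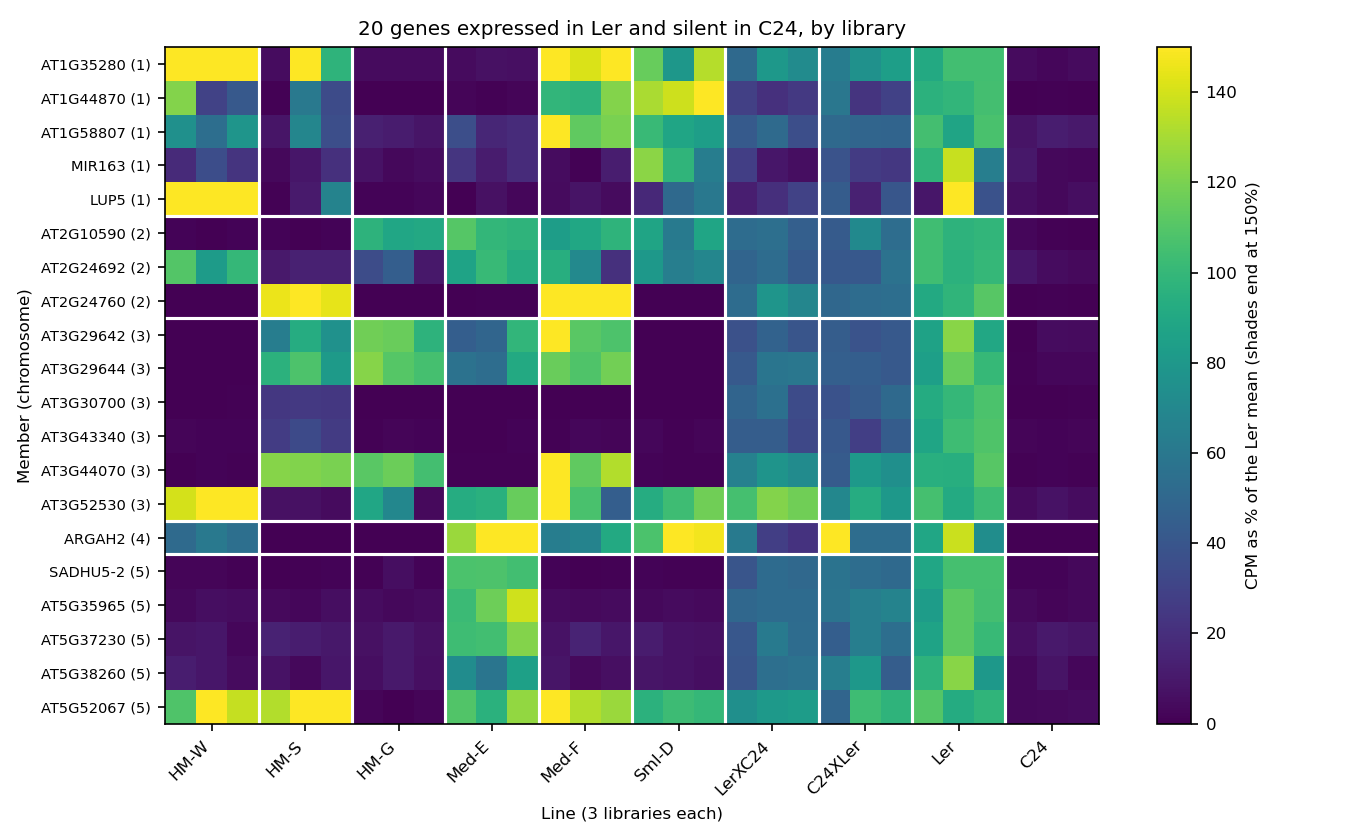
Level of each of the 20 members (rows, by chromosome and position, chromosome number in brackets) in each of the 30 libraries (columns, 3 a line) as a percentage of the Ler mean, with shades ending at 150%. Most rows take middle shades in the F1 hybrids and switch between dark (off) and bright (on) from line to line in the F6 lines, and the 4 neighbouring chromosome 5 members are bright in Med-E and dark in the other 5 F6 lines.

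Each F6 line was then tested against both F1 hybrids together, in libraries the rule had not used. The members were chosen for a large parental difference, which lines fixed for either parental copy can carry against the hybrids. A larger share called than over all genes thus follows in part from that choice, also in the test among the F6 lines. The 6 comparisons share the 6 hybrid libraries. In HM-W 15 of the 20 members were called, 4 higher and 11 lower, where 10.9% of all genes tested were called, 4.38% higher and 6.55% lower. HM-S had 14 members called, 5 higher and 9 lower, against 11.6% of all genes, 5% higher and 6.6% lower. In HM-G 17 were called, 4 higher and 13 lower, against 17.1% of all genes, 8.26% higher and 8.86% lower.

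Among the other F6 lines, Med-E had 13 members called, 6 higher and 7 lower, against 28.6% of all genes, 13.6% higher and 15% lower. In Med-F 16 were called, 9 higher and 7 lower, against 27.6% of all genes, 14.3% higher and 13.3% lower. Sml-D had 15 called, 5 higher and 10 lower, against 28.7% of all genes, 13.7% higher and 14.9% lower. Over the members the median log2 change was -2.91 for HM-W, -0.70 for HM-S and -3.25 for HM-G among the mimics. For Med-E it was 0.17, for Med-F 0.18 and for Sml-D -1.30, and over all genes tested it lay between -0.01 and 0.00 in each. All 20 members differed among the 6 F6 lines (edgeR quasi-likelihood test, 60.1% of all genes called).

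The state and the tested change went together, as both read the same F6 libraries. Of the 58 on combinations 33 were called higher than the hybrids, 25 were not called and 0 were called lower, with a median log2 change of 0.78. Of the 50 off combinations 47 were called lower, with a median log2 change of -5.55. The 3 off combinations that were not called were all LUP5, in HM-G, Med-E and Med-F. The levels below the on state varied between members. AT3G29642 was off with 0 counts in all 6 libraries of HM-W and Sml-D, whereas AT5G35965 was not off by the mean of any F6 line. It stayed at between 0.244 and 0.477 CPM in the 15 libraries of the 5 lines where it was intermediate. The lowest of these, HM-S sibling 2, was under the off limit by itself. The C24 values of AT5G35965 were near this range, at 0.318, 0.155 and 0.272 CPM.

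ARGAH2 had the widest range of CPM over the F6 lines. It was at 118, 171 and 139 CPM in Med-E, at 99.3, 175 and 136 CPM in Sml-D, at 58.9, 61.7 and 84.0 CPM in Med-F and at 47.9, 56.3 and 50.7 CPM in HM-W. In HM-S it was at 0.0986, 0.113 and 0.0988 CPM and in HM-G at 0.264, 0.149 and 0.138 CPM, at the level of C24. The 2 off lines are both hybrid mimics, and their libraries did not overlap those of the on lines. Against both hybrids the log2 change was -9.22 ± 0.68 in HM-S (edgeR quasi-likelihood test, adjusted p = 4.5e-10) and -8.29 ± 0.64 in HM-G (adjusted p = 9.6e-10). It was 1.20 ± 0.34 in Med-E (adjusted p = 0.0089) and 1.14 ± 0.34 in Sml-D (adjusted p = 0.014), while HM-W (-0.27 ± 0.35, adjusted p = 0.70) and Med-F (0.07 ± 0.35, adjusted p = 0.91) were not called. ARGAH1 stayed between 13.2 and 19.0 CPM in the means of the 6 F6 lines, and ARGAH2 exceeded it wherever it was on.

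**Figure D3:**
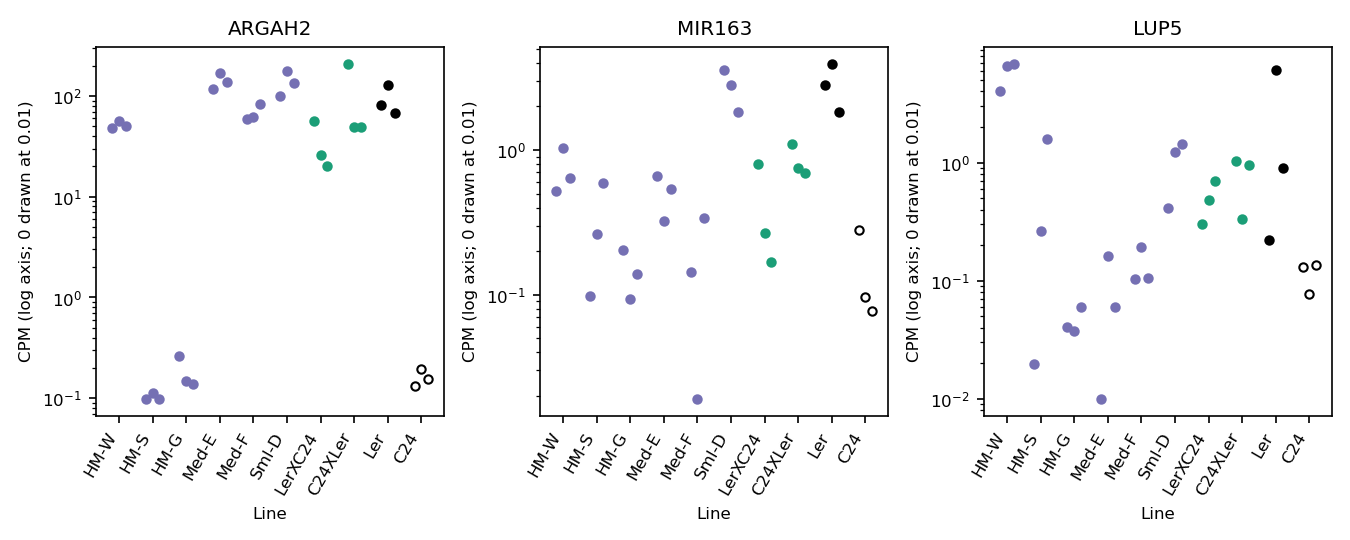
CPM on a log axis in each library for ARGAH2, MIR163 and LUP5 (panels), with 3 points a line, F6 lines in purple, F1 hybrids in green, Ler filled black and C24 open, and 0 drawn at 0.01. ARGAH2 falls to the C24 level in HM-S and HM-G alone, MIR163 reaches the Ler level in Sml-D alone, and LUP5 spreads widely between libraries of 1 line, Ler included.

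MIR163 and LUP5 lie 100.5 kb apart on chromosome 1 and were both on or both not on in 5 of 6 F6 lines. MIR163 was at 3.56, 2.82 and 1.83 CPM in Sml-D, the same range as Ler, and at 0.517, 1.03 and 0.641 CPM in HM-W, the lower of its 2 on lines. HM-W rests on the threshold, since its mean was 25.4% of Ler and only sibling 2 was on by itself, and its siblings overlapped those of Med-E, at 0.657, 0.324 and 0.534 CPM, where MIR163 was intermediate. In HM-G it was at 0.203, 0.0934 and 0.138 CPM and in Med-F at 0.144, 0.0191 and 0.338 CPM. Against both hybrids it changed in Sml-D (log2 change 2.18 ± 0.39, edgeR adjusted p = 2.1e-04), HM-G (-1.95 ± 0.62, adjusted p = 0.032) and Med-F (-1.94 ± 0.61, adjusted p = 0.019). LUP5 was highest in HM-W, at 4.04, 6.62 and 6.86 CPM, a log2 change of 3.17 ± 0.61 (adjusted p = 0.0011), and no hybrid library exceeded 1.04 CPM.

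Levels of the miR163 targets can be set beside this. AT1G66690 averaged 3.62 ± 0.30 CPM in HM-W and 4.00 ± 0.28 CPM in Sml-D, where MIR163 was on. Where MIR163 was not on, it averaged 3.98 ± 0.68 CPM in HM-S, 5.05 ± 0.45 CPM in HM-G, 5.75 ± 0.37 CPM in Med-E and 5.15 ± 0.68 CPM in Med-F, and stood at 3.70 ± 0.11 CPM in Ler and 5.11 ± 0.66 CPM in C24 (SD, n = 3 each). HM-W, Sml-D and HM-S thus averaged below the other F6 lines, and MIR163 was at the Ler level in Sml-D alone. AT1G66690 lies 13.2 kb from MIR163, so the level of the microRNA and the parental copy of the target gene cannot be told apart. FAMT on chromosome 3 averaged 1.19 ± 0.27 CPM in HM-W, 22.1 ± 11.1 CPM in HM-S, 43.1 ± 13.3 CPM in HM-G, 3.27 ± 2.06 CPM in Med-E, 29.2 ± 11.7 CPM in Med-F and 6.78 ± 7.72 CPM in Sml-D, with 87.8 ± 33.3 CPM in Ler and 6.91 ± 1.87 CPM in C24. Its levels did not sort by the state of MIR163, as Med-E lay between the 2 lines where MIR163 was on. By mean MIR163 level, Sml-D (2.74 CPM), HM-W (0.728 CPM) and Med-E (0.505 CPM) stood above HM-S (0.318 CPM), Med-F (0.167 CPM) and HM-G (0.145 CPM). The former had the lower FAMT means, although FAMT reached 15.5 CPM in a Sml-D library and fell to 12.7 CPM in HM-S. The parents went the other way, with both MIR163 and FAMT higher in Ler. A relation between MIR163 and FAMT levels was not tested. PXMT1 averaged 3.34 ± 0.87 CPM in HM-W, 5.45 ± 4.35 CPM in HM-S, 0.89 ± 0.28 CPM in HM-G, 2.22 ± 0.80 CPM in Med-E, 2.57 ± 1.33 CPM in Med-F and 6.11 ± 4.90 CPM in Sml-D, with 13.4 ± 5.0 CPM in Ler and 2.12 ± 0.88 CPM in C24. The Ler libraries of PXMT1 were thus above those of C24, as for MIR163. PXMT1 lies between AT1G66690 and MIR163 on the chromosome, so the same limit holds for it.

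Some runs of members on 1 chromosome were on in the same lines. On chromosome 5, SADHU5-2, AT5G35965, AT5G37230 and AT5G38260, which lie between 0.548 and 4.16 Mb from the next, were on in Med-E alone and were not on in the other 5 lines. AT5G37230 was at 2.12, 2.15 and 2.51 CPM in Med-E, against 0.836, 1.25 and 1.09 CPM in LerXC24 and 0.924, 1.32 and 1.11 CPM in C24XLer, a log2 change of 1.02 ± 0.17 (edgeR adjusted p = 7.8e-05). AT5G38260 was at 1.57, 1.26 and 1.84 CPM in Med-E and was not called there (0.32 ± 0.22, adjusted p = 0.31). All 4 were called lower in the other 5 F6 lines, with log2 changes between -5.89 and -2.21. On chromosome 1, AT1G35280, AT1G44870 and AT1G58807 were likewise on together, in HM-W, HM-S, Med-F and Sml-D, over gaps of 4.01 and 4.83 Mb.

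Over the 15 pairs of neighbouring members the on state agreed in 71.4% of line comparisons for the 7 pairs under 1 Mb apart, in 75% for the 8 pairs further apart, and in 45.3% for members on different chromosomes. Among the pairs under 1 Mb apart, the lowest values were 1 of 6 lines for AT2G24692 with AT2G24760 and 2 of 6 for AT3G29644 with AT3G30700.

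To place each member against its surroundings, other nuclear genes with a parental difference of at least 8-fold within 1 Mb were used as markers, out of 161 such genes over the genome. A marker counted as nearer Ler where its level in a line passed the midpoint of the parental CPM means. Of the 120 combinations, 60 had the 5 markers asked for. In the 14 combinations where at least 80% of markers were nearer Ler, the member was on in 13 and intermediate in 1 (MIR163 in HM-S). In the 21 combinations with a share between these limits, the member was on in 10, off in 8 and intermediate in 3. Where at most 20% were nearer Ler, in 25 combinations, the member was off in 17, intermediate in 5 and on in 3, and those 3 were all AT2G24692, in HM-W, HM-G and Med-E. Some F1 hybrid combinations also passed these limits: 80% were nearer Ler for MIR163 and LUP5, and 20% for AT1G44870, in both hybrids. The limits thus do not tell a fixed stretch from one with both parental copies. For MIR163 and LUP5 in HM-S, siblings 1 to 3 had 20%, 100% and 60% nearer Ler. The markers are chosen on the same parental libraries as the members, and the windows of neighbours such as MIR163 and LUP5 overlap. This is a description and the combinations are not independent.

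**Figure D4:**
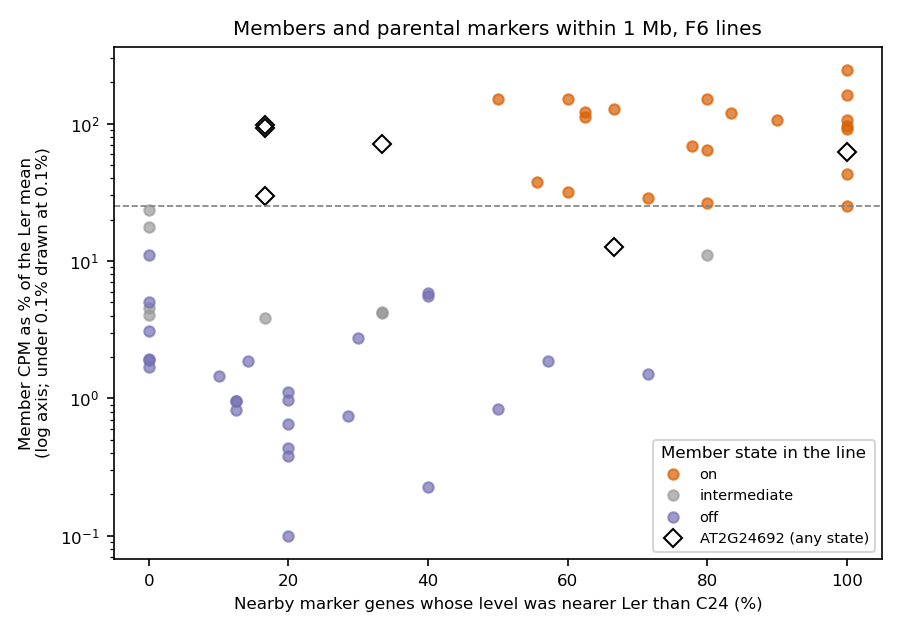
Member level as a percentage of the Ler mean (y axis, log) against the percentage of parental marker genes within 1 Mb whose level was nearer Ler than C24 (x axis), 1 point for each member and F6 line with at least 5 markers, coloured by the member's state, with a dashed line at 25%. Off points lie mostly at the left and on points at the right, and AT2G24692 (open diamonds) is on at 3 of the points at the far left, at 97.3% of Ler in HM-W, 93.6% in Med-E and 29.8% in HM-G.

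AT2G24692 and AT2G24760 lie only 43.0 kb apart on chromosome 2 and had the same on state in 1 of 6 lines and 3 of 18 libraries. AT2G24692 was at 0.276, 0.356 and 0.362 CPM in HM-S, where AT2G24760 was at 40.3, 44.4 and 39.9 CPM. In HM-W the order was the other way, with AT2G24692 at 2.88, 2.16 and 2.62 CPM, the Ler level, and AT2G24760 at 0.119, 0.128 and 0.117 CPM. AT2G24692 instead had the same on state as AT3G52530, on chromosome 3, in 6 of 6 lines and 17 of 18 libraries, and the pair shared even the siblings in which they were low.

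The near copy of AT2G24692 is AT3G50780, with 96.6% identity over 61% of the gene, and it lies 0.607 Mb from AT3G52530. AT3G50780 itself was expressed in both parents, at 14.8 ± 0.7 CPM in Ler and 14.2 ± 1.1 CPM in C24 (SD, n = 3). It averaged 15.7 CPM in HM-S, where AT2G24692 was low, and between 12.6 and 21.6 CPM in the other F6 lines, so its own level did not follow that of AT2G24692. Whether counts assigned to AT2G24692 came from the chromosome 3 copy was not tested.

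Some other members have a near copy on another chromosome with a like profile, and some do not. AT1G33855, the copy of AT3G29642, was at 0.469 CPM in Ler and 0.409 CPM in C24. None of the counted copy genes of AT1G44870 reached 0.25 CPM in a parent. AT5G52067, a pseudogene on chromosome 5, was off in HM-G alone, with 0.0813, 0.00 and 0.0791 CPM, and was at between 3.52 and 7.09 CPM in the 15 libraries of the other F6 lines. AT4G19240 on chromosome 4, which matches AT5G52067 at 91.0% identity over 98% of its length, averaged 1.15 ± 0.04 CPM in HM-G and between 46.0 and 54.0 CPM in the other F6 lines, with 44.1 ± 4.5 CPM in Ler and 1.35 ± 0.17 CPM in C24. The pair was thus low in the same single F6 line.

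AT1G35280 on chromosome 1 has 3 near copies, and 1 of them had a like profile. This is AT2G12210 on chromosome 2, with 98.6% identity over 90% of its length. AT2G11070 (1.84 CPM in Ler and 2.16 CPM in C24) and AT1G31570 (2.40 CPM in Ler and 2.89 CPM in C24) were expressed in both parents and in every F6 line. AT2G12210 was at 0.00, 0.844 and 0.428 CPM in HM-S siblings 1 to 3, where AT1G35280 was at 0.296, 10.3 and 6.01 CPM, so both were lowest in sibling 1. AT1G58807 is identical to AT1G59124 over its whole length in the reference, and AT3G30700 has 74 matches in the genome, which cover 48 counted genes. For these members the division of counts between copies is uncertain.

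AT3G30700 and AT3G43340 are the 2 members that no F6 line carried at the Ler level. AT3G30700 was at 1.09, 1.11 and 1.09 CPM in HM-S, 24.6% of its Ler mean, against 2.15, 2.47 and 1.52 CPM in LerXC24, 1.69, 1.91 and 2.29 CPM in C24XLer and 4.12, 4.45 and 4.78 CPM in Ler. It reached at most 0.0388 CPM in the other 15 F6 libraries. AT3G43340, 3.03 Mb away, was at 2.39, 3.02 and 2.32 CPM in HM-S, 28.8% of Ler, and at most 0.251 CPM in the other F6 libraries.

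Both thus held the same low and even level in the 3 HM-S siblings, with no sibling at 0 and none near Ler. Against both hybrids AT3G30700 was lower in HM-S (log2 change -0.94 ± 0.21, edgeR adjusted p = 0.0071), and AT3G43340 was not called there (-0.50 ± 0.18, adjusted p = 0.082). In HM-G and Med-F both were off, although the members on either side of them, AT3G29644 and AT3G44070, were on at the Ler level. AT3G44070 was at 23.8, 24.8 and 22.3 CPM in HM-G and AT3G29644 at 8.90, 8.01 and 7.69 CPM. Of the 7 markers within 1 Mb of AT3G43340, 5 were nearer Ler in HM-G and 4 in Med-F.

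Of the 48 copy genes of AT3G30700, 8 reached 0.25 CPM in a parent, and among these 2 were at least 4-fold higher in Ler and 1 in C24. The copy named here, AT2G12320 on chromosome 2 (92.4% identity over its whole length), was picked because its profile was like that of AT3G30700. It was at 0.158, 0.319 and 0.247 CPM in HM-S and averaged 0.79 ± 0.08 CPM in Ler, and its mean was at most 0.00678 CPM in the other 5 F6 lines and 0 in C24.

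Siblings of 1 line differed at few members. At least 1 sibling on and at least 1 off was found in 4 of 120 combinations, 3 in HM-S and 1 in HM-G. By the same count, 1 of 40 combinations was split in the F1 hybrids (MIR163 in LerXC24) and 1 of 20 in Ler (LUP5), so the count alone does not set the F6 lines apart. The highest library was over 4 times the lowest in 14 of 120 combinations in the F6 lines, 6 of them in HM-S, against 2 of 40 in the hybrids, 1 of 20 in Ler and 1 of 20 in C24. In HM-S, AT1G44870 had 1, 65 and 42 counts in siblings 1 to 3, which is 0.0197, 1.22 and 0.691 CPM. AT1G58807 was at 0.178, 1.46 and 0.774 CPM and AT1G35280 at 0.296, 10.3 and 6.01 CPM in the same siblings. Sibling 1 was at the C24 level, sibling 2 the highest and sibling 3 between them for all of these chromosome 1 members. The markers around AT1G58807 gave the same order, with 0 of 9 nearer Ler in sibling 1, 8 of 9 in sibling 2 and 5 of 9 in sibling 3. Around AT1G44870, 2, 3 and 3 of 5 markers were nearer Ler in siblings 1 to 3. The markers around AT1G35280, fewer than the 5 asked for, did not follow its level. There, 4 of 4 were nearer Ler in every sibling, sibling 1 included.

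Further along chromosome 1 the order changed. LUP5 was at 0.0197, 0.263 and 1.60 CPM in HM-S siblings 1 to 3 and MIR163 at 0.0986, 0.263 and 0.593 CPM, so that sibling 3 was now the highest. The LUP5 values of the 3 Ler libraries also spread widely, 27.6-fold from lowest to highest, against 80.9-fold in HM-S. The order of LUP5 among siblings thus cannot be told apart from the spread between libraries of 1 line.

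In HM-G, AT3G52530 was at 2.83, 2.20 and 0.119 CPM in siblings 1 to 3, and AT2G24692 at 0.915, 1.18 and 0.257 CPM. In Med-F they were at 5.37, 3.42 and 1.44 CPM and at 2.48, 1.85 and 0.549 CPM. Sibling 3 was the lowest in both lines for both genes, and at AT3G52530 it was at the C24 level in HM-G and at 45.1% of Ler in Med-F. AT3G52530 was not called against the hybrids in HM-G (log2 change -0.79 ± 0.41, edgeR adjusted p = 0.19) or Med-F (0.05 ± 0.38, adjusted p = 0.94), where the line mean pools these siblings.

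**Figure D5:**
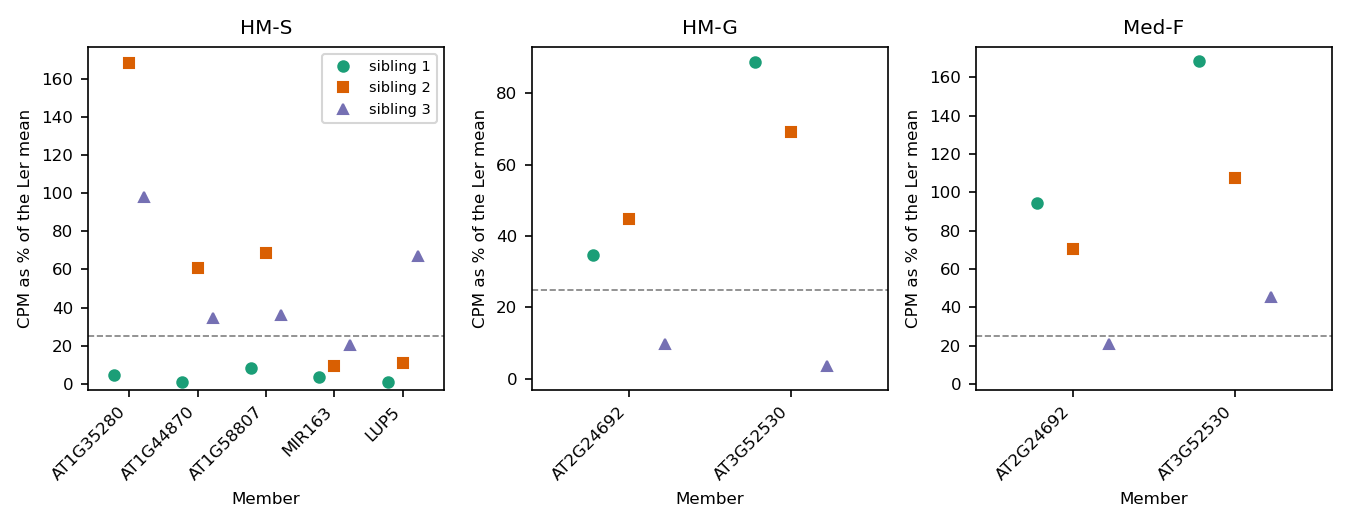
CPM as a percentage of the Ler mean in siblings 1 to 3 (symbols) for 5 chromosome 1 members in HM-S and for AT2G24692 and AT3G52530 in HM-G and Med-F, with a dashed line at 25%. HM-S sibling 1 is under 10% at all 5 members, and sibling 3 is the lowest for both genes in HM-G and in Med-F.

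Several members were above the Ler level where they were on. AT2G24760 was at 40.3, 44.4 and 39.9 CPM in HM-S and 45.6, 42.2 and 46.6 CPM in Med-F, above all Ler libraries. Against both hybrids the log2 change was 1.27 ± 0.12 in HM-S (edgeR adjusted p = 3.0e-08) and 1.34 ± 0.12 in Med-F (adjusted p = 1.0e-08). AT1G35280 was at 12, 13.5 and 13 CPM in HM-W, against 5.61, 6.41 and 6.41 CPM in Ler. Its change against the hybrids was 1.51 ± 0.40 (adjusted p = 0.015). The overlapping pair AT3G29642 and AT3G29644 was on in HM-S, HM-G, Med-E and Med-F and off in HM-W and Sml-D, and AT2G10590 was on in all F6 lines but HM-W and HM-S, at 4.74, 4.33 and 4.41 CPM in HM-G and between 0.0188 and 0.0823 CPM in HM-W and HM-S.

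The hybrid mimics were set against the other F6 lines as 3 lines against 3, with siblings summed. On combinations were 25 of 60 in the mimics and 33 of 60 in the other lines. No member was on in all 3 lines of 1 side and off in all 3 of the other. Of 19 members that passed the filter on low counts, 0 were called by the edgeR quasi-likelihood test, 0 had an unadjusted p under 0.05 and 0 were called by DESeq2, where 1.48% of all 29951 genes tested were called, 0.805% higher and 0.678% lower. The median log2 change over the members was -0.66, against -0.01 over all genes. ARGAH2 had a log2 change of -2.74 ± 1.94 (adjusted p = 0.47), being on in 1 mimic and in all 3 other lines, and was called without HM-W (-9.60, adjusted p = 0.017). AT2G10590 was called without HM-G (-6.32, adjusted p = 0.0032), which is the only mimic that had it on. SADHU5-2 had a log2 change of -4.37 ± 1.89 (adjusted p = 0.27), which rests on Med-E alone.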

How the data were processed

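The authors deposited 1 table of raw counts per gene model, as whole numbers, and a table of read counts per library. The submitters' processing notes name FastQC, DESeq and the build TAIR10. No aligner, counting tool or use of strand is stated in the labels or file headers. The members, lists and states were chosen with earlier results of these data known. Tests used edgeR 4.0.16 in R 4.3.3 with TMM, filterByExpr at a minimum count of 10, all 30 libraries in 1 quasi-likelihood fit with 1 coefficient a line, and Benjamini-Hochberg adjustment over the 29268 genes kept, with a call under 0.05. Mimics were tested on line sums. The standard error beside a log2 change is the size of that change divided by the square root of the test's F value. It is therefore approximate, above all where counts are near 0. DESeq2 1.42.0 and other settings were alternatives, and the fit was tested on simulated data. Identifiers were matched to TAIR10.1 for symbols, positions and sequences (32742 of 33498, all 20 members), and near copies were found with BLAST 2.17.0. The naming rule took the 12 members highest in Ler, members of at least 5 CPM in Ler with a symbol, a sibling split or an extreme F1 share, members called between reciprocal hybrids or between mimics and other lines, and genes at the thresholds. The remaining members, near copies, neighbours and miR163 targets were named after their values were seen. Index barcodes are partly shared, with 6 of them listed for both a parental library and a library of Sml-D or Med-F.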

Additional observations from a re-analysis of the deposited data

How the results depend on the processing

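Of 191 alternative settings over the counts of members, 173 stayed within 1.5 times the reported count. The number of members rests on the thresholds: it was 51 with a Ler minimum of 1 CPM, 10 with 4 CPM, 3 with a C24 maximum of 0.1 CPM, 36 with 0.5 CPM and 10 when every library had to pass, and between 17 and 21 without 1 parental library. With on at 0.5 times the Ler mean, 11 members were on in C24XLer, 10 in LerXC24 and 6 in HM-S. Sibling splits numbered 2 with off under 0.1 CPM and 8 with off under 0.5 CPM, an alternative chosen after seeing the data. Members called between the reciprocal hybrids numbered 0 with only the compared lines fitted and between 0 and 3 without 1 library, where MIR163 and AT2G24760 joined ARGAH2 without LerXC24 replicate A. Members called between mimics and other lines numbered between 0 and 1 without 1 line. Deviations of same-numbered libraries from their line means correlated between -0.225 (HM-S with Sml-D, sibling 2) and 0.292 (C24 with LerXC24, replicate C). Between the 2 hybrids the values were 0.0085, 0.080 and 0.0019 for replicates A to C. Whether the numbers pair the libraries is thus not settled. With the replicate block the members called numbered 1 between the reciprocal hybrids, 15 for HM-W, 13 for HM-S, 18 for HM-G, 14 for Med-E, 16 for Med-F, 15 for Sml-D and 20 among the F6 lines. Levels under the floor of 3 counts cannot be told from 0 at this depth. The cause of these shifts was not tested.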

Other observations

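Genes beside the members leaned the same way in the parents. Of the 76 nearest counted genes, taken as 2 on each side of a member and leaving out members, 43 reached 0.5 CPM in a parent. In 12 of these (27.9%) the Ler mean was at least 4 times the C24 mean, and in 0 was the C24 mean at least 4 times the Ler mean. Among all nuclear genes that reached 0.5 CPM, 1.03% were that much higher in Ler. The 12 included AT3G43350 beside AT3G43340, at 12.4 CPM in Ler and 1.46 CPM in C24, AT1G44880 beside AT1G44870, at 10.5 CPM in Ler and 0.445 CPM in C24, and all 4 genes taken beside AT1G58807, in a stretch with near-identical copies. These neighbours were read on the parental libraries that chose the members, and no test was made.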
